A study of Mus musculus with 28 samples.

Results

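Levels of 7 activity-regulated genes were compared in the frontal cortex of stressed, diabetic and control mice. They were the NR4A nuclear receptors Nr4a1, Nr4a2 and Nr4a3 and the synaptic effector genes Arc, Homer1, Nptx1 and Nptx2. Each was chosen by its symbol, and each was found once in both deposited count tables, among 15263 genes in either table. All 7 were kept by the filter on low counts, which removed 0 genes. RNA came from 28 male C57Bl/6 mice, with 1 library per mouse. In chronic social stress (CSS), 8 mice were isolated for 7 weeks and had social confrontations during the last 20 days, and their 8 controls (CSS_control) were, like them, 21 weeks old. In the type 2 diabetes model (T2D), 6 mice received 75 mg/kg streptozotocin, a beta-cell toxin, and a high-fat diet (43.2% kcal from fat) for 21 weeks, and their 6 controls (T2D_control) were, like them, 30 or 31 weeks old. Both parts of each treatment were applied together, so isolation cannot be told apart from confrontation, nor the toxin from the diet. The labels do not say how or when the control mice were housed or fed, or how long after the last confrontation the tissue was taken.

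Neuronal firing and calcium entry switch on immediate early genes, which need no new protein for their induction. NR4A proteins are nuclear receptors that act as transcription factors without a known physiological ligand and are themselves induced in this way. Arc promotes the internalisation of AMPA receptors, Homer1 encodes scaffold proteins that tie metabotropic glutamate receptors to their partners, and the secreted neuronal pentraxins encoded by Nptx1 and Nptx2 gather AMPA receptors at synapses. The short, activity-induced form of Homer1 uncouples what the long forms hold together. The gene-level counts used here add all Homer1 forms, so the short and long forms could not be told apart.

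CREB, a factor activated by calcium and cyclic AMP, binds cAMP response elements (CRE). The promoter windows that RefSeq gives for 4 of the 7 genes are shown because the core of that element, the letters TGACG, occurred several times in each NR4A gene and in Homer1. Each window runs from 250 bases before to 50 bases after an annotated start in GRCm38.p6 and is printed along the strand of its gene, with capitals for TGACG and for its reverse complement CGTCA. The windows are chr15:101266596-101266895 on the plus strand for Nr4a1, chr2:57123954-57124253 on the minus strand for Nr4a2, chr4:48045055-48045354 on the plus strand for Nr4a3 and chr13:93303507-93303806 on the plus strand for Homer1.
Nr4a1: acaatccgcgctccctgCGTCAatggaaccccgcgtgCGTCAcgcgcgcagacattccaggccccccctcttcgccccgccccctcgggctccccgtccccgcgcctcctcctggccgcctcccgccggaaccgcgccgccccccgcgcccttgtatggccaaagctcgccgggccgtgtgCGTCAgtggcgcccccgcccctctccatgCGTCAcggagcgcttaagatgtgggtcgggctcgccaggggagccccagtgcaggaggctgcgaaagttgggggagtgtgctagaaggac
Nr4a2: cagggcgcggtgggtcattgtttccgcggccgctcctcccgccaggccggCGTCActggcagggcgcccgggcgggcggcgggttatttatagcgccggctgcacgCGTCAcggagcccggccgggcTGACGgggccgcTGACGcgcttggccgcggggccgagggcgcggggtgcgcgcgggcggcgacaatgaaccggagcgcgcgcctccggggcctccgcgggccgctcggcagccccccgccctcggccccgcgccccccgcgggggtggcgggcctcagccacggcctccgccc
Nr4a3: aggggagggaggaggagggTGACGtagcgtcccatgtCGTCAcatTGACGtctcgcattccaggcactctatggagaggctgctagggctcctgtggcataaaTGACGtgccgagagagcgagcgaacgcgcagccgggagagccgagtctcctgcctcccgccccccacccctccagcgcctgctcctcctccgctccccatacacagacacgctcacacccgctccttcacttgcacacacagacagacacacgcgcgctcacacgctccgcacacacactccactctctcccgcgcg
Homer1: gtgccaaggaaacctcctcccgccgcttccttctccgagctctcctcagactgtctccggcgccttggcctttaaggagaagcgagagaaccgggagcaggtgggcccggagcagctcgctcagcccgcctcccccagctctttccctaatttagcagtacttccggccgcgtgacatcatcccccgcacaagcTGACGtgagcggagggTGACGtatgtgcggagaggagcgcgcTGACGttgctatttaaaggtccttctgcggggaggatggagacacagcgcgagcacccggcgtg
There were 4 matches in each NR4A window and 3 in that of Homer1. A second Homer1 window, chr13:93307784-93308083, held 0. Of 32851 mouse promoter windows, 20.81% held at least 1 match on either strand, 1.03% at least 3 and 0.23% at least 4. The full element TGACGTCA, present in 1.79% of all windows, and the CArG box of serum response factor, present in 1.63%, had no match in the windows of these genes. The MEF2 motif, present in 3.19% of all windows, matched once, in that of Nr4a2. These are matches of letters, and binding was not measured.

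**Figure D1:**
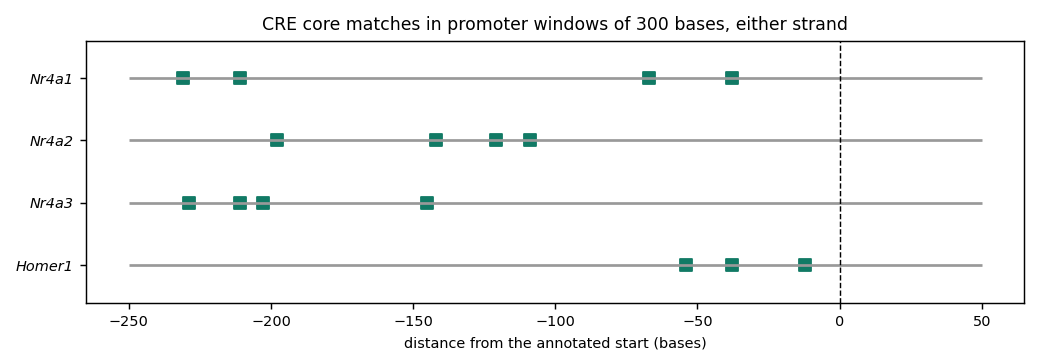
Positions of the letters TGACG on either strand (squares) in the promoter windows of 4 genes, with distance from the annotated start in bases on the x axis and the start as a dashed line. All 4 matches of each NR4A window lie before the start, and the 3 of Homer1 lie within its last 56 bases before the start.

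Library depth, summed over the genes in each table, lay between 15.2 and 21.9 M estimated counts for CSS, 14.3 and 37.5 M for CSS_control, 14.3 and 22.7 M for T2D, and 12.1 and 21.6 M for T2D_control. The lowest estimated count of any of the 7 genes in any library was 90.1, for Nr4a2. The labels describe separate mice, so the spread within a group includes that between animals. In bulk tissue, fewer cells of a type and less RNA per cell cannot be told apart. All 8 listed markers of excitatory cortical neurons were present, and their summed level was 750 to 1248 CPM (counts per M counts of the library) in CSS and 715 to 1107 CPM in CSS_control. It was 547 to 1323 CPM in T2D and 865 to 1221 CPM in T2D_control. Markers of striatal projection neurons, which belong to a neighbouring region, were also present, with sums of 968 to 1615 CPM in CSS, 1081 to 2312 CPM in CSS_control, 333 to 2132 CPM in T2D and 428 to 1860 CPM in T2D_control.

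Levels were set against each other per kilobase of the longest annotated transcript. Homer1 had the highest mean in every group, at 69.1 ± 14.5 CPM per kb in CSS, 54.7 ± 6.39 in CSS_control, 64.8 ± 20.4 in T2D and 90.6 ± 22.7 in T2D_control (SD). Arc averaged 59.9 ± 33.5 CPM per kb in CSS and 38.8 ± 11.7 in CSS_control (SD, n = 8 each), beside 36.8 ± 13.3 for T2D and 67.5 ± 46.8 for T2D_control (SD, n = 6 each). Nptx1 averaged 45.4 ± 8.59 CPM per kb in CSS and 42.5 ± 6.04 in CSS_control, and 40.7 ± 10.9 in T2D and 53.0 ± 6.21 in T2D_control. Arc and Nptx1 thus changed places between groups, and their means differed by less than the SD of Arc in each group. The means of Homer1 and Arc differed by less than the SD of Arc in CSS and T2D_control. Nptx2 averaged 10.8 ± 2.18 CPM per kb in CSS, 9.99 ± 2.39 in CSS_control, 13.4 ± 4.25 in T2D and 16.0 ± 3.72 in T2D_control (SD), below Nr4a1 and above Nr4a2.

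Among the receptors, Nr4a1 had the highest mean in every group, between 19.2 and 23.7 CPM per kb. Nr4a2 followed with 5.95 ± 1.48 CPM per kb in CSS, 5.60 ± 1.74 in CSS_control, 7.82 ± 2.59 in T2D and 5.49 ± 1.50 in T2D_control (SD). Nr4a3 was lowest, with 4.02 ± 1.40 CPM per kb in CSS, 2.51 ± 0.516 in CSS_control, 4.18 ± 1.85 in T2D and 4.80 ± 2.08 in T2D_control (SD). In T2D_control the means of Nr4a2 and Nr4a3 differed by less than either SD. The median share of Nr4a1 in the sum of the 3 receptors was 67.4% in CSS and 70.1% in CSS_control, and 65.7% in T2D and 68.6% in T2D_control. Of the pentraxins, Nptx1 was the more abundant in all 28 libraries. Its median ratio to Nptx2, per kb, was 4.47 in CSS and 4.49 in CSS_control, and 3.05 in T2D and 3.29 in T2D_control.

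**Figure D2:**
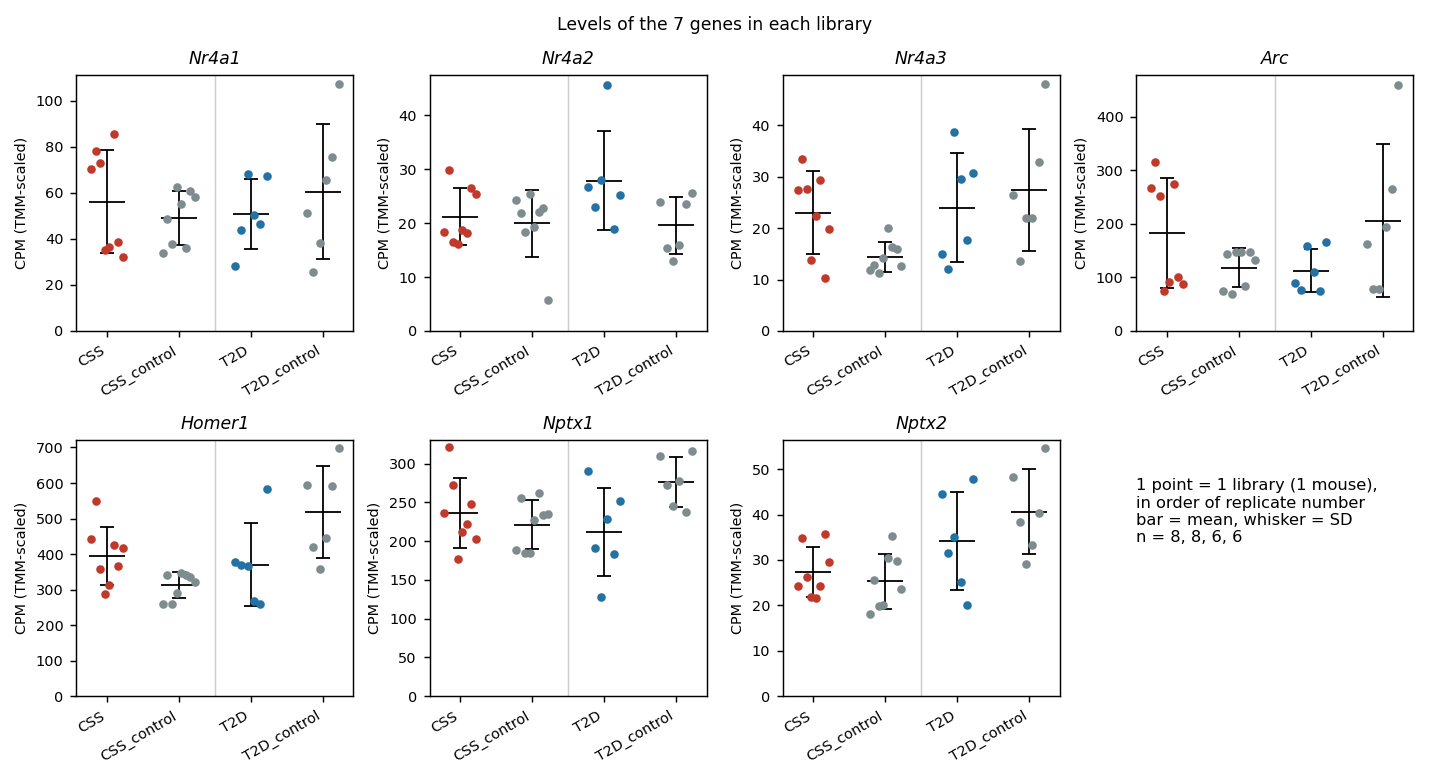
CPM of each gene (y axes, from 0) in each library, with CSS, CSS_control, T2D and T2D_control from left to right; points are libraries in order of replicate number, and bars are the mean with the SD (n = 8, 8, 6 and 6). The CSS libraries fall into a high and a low set for Arc and Nr4a1, with 4 libraries in each. The CSS_control libraries also fall into separate sets for Arc and for Nptx1, with 3 libraries in the lower set and 5 in the higher. Those of T2D_control do so for Nr4a2, with 3 libraries in each set.

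In CSS, the estimates of all 7 genes were above those of controls, as were those of 7741 of all 15097 genes. The largest were Nr4a3 at 1.60-fold, Arc at 1.54-fold and Homer1 at 1.26-fold, and none of these passed the test. By edgeR's quasi-likelihood test, adjusted over all genes with a threshold of 0.05, 0 of the 7 genes passed, beside 4.52% of all genes in this comparison. At an unadjusted p under 0.05 there were 2 of the 7, Nr4a3 and Homer1, both higher, beside 21.5% of all genes in either direction and 11% in that direction. In DESeq2, where 8.82% of all genes passed and 4.16% were higher in CSS, those 2 passed. None of the 7 had groups without overlap, which 0.609% of all genes had.

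The receptor Nr4a3 ranged from 10.3 to 33.5 CPM in CSS with a median of 24.9, against 11.3 to 20.1 CPM in CSS_control with a median of 13.5. There were 5 CSS libraries above the highest control, while CSS 7 lay below the lowest control. Its log2 fold change was 0.68 ± 0.20 (SE; 95% interval 0.26 to 1.097; edgeR adjusted p = 0.0574), and 6 of 8 CSS libraries were above the mean of controls. The call turned on single libraries: without CSS 4 the adjusted p in edgeR was 0.0390 and without CSS 7 it was 0.0161. DESeq2 gave an adjusted p of 0.0114. Over all the alternatives run, the adjusted p lay between 0.0114 and 0.147.

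Nr4a1 ranged from 32.0 to 85.3 CPM in CSS with a median of 54.4, against 33.9 to 62.7 CPM in CSS_control with a median of 51.9. CSS 1, 2, 3 and 6 were all above the highest control, at 70.1, 78.1, 73.1 and 85.3 CPM. CSS 4, 5, 7 and 8 had 35.3, 36.4, 38.6 and 32.0 CPM, the last of them below the lowest control. The log2 fold change was 0.19 ± 0.23 (SE; 95% interval -0.30 to 0.68; edgeR adjusted p = 0.674). It was 0.083 without CSS 6 and 0.10 without CSS 2.

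Nr4a2, a receptor known from midbrain dopamine neurons and also expressed in deep cortical layers, ranged from 16.1 to 29.9 CPM in CSS with a median of 18.5. In CSS_control it ranged from 5.75 to 25.4 CPM with a median of 21.97. CSS_control 8, at 5.75 CPM, stood far below the other controls. edgeR gave a log2 fold change of 0.09 ± 0.22 (SE; edgeR adjusted p = 0.857), and without that library it was -0.052.

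Homer1 ranged from 288 to 549 CPM in CSS with a median of 393, against 261 to 347 CPM in CSS_control with a median of 328. There were 6 CSS libraries above the highest control, and CSS 4 and CSS 5, at 288 and 312 CPM, lay within the range of controls. The log2 fold change was 0.34 ± 0.11 (SE; 95% interval 0.11 to 0.57; edgeR adjusted p = 0.0782), with 7 of 8 libraries above the mean of controls. Without CSS 4 the adjusted p in edgeR was 0.0392, and DESeq2 gave 0.0352. Over all the alternatives run it lay between 0.0352 and 0.228.

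Arc ranged from 75.5 to 316 CPM in CSS with a median of 176, against 68.5 to 148 CPM in CSS_control with a median of 139. The same libraries were high as for Nr4a1, with 267, 316, 251.2 and 274 CPM in CSS 1, 2, 3 and 6, while CSS 4, 5, 7 and 8 had 75.5, 91.2, 101.2 and 87.9 CPM. edgeR gave a log2 fold change of 0.63 ± 0.34 (SE; 95% interval -0.10 to 1.35; edgeR adjusted p = 0.307). Fos is an immediate early factor, picked because it was among the genes most like Nr4a1 and Nr4a3 across these same libraries. Its values are given as a description and are no separate support for the sets. Fos had 35.5, 26.8, 28.3 and 32.1 CPM in CSS 1, 2, 3 and 6, beside 10.2 to 27.6 CPM in CSS_control. It had 11.5, 19.4, 11.2 and 18.4 CPM in CSS 4, 5, 7 and 8.

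The pentraxins overlapped widely between the groups. Nptx1 ranged from 177 to 321 CPM in CSS with a median of 230, against 185 to 262 CPM in CSS_control with a median of 230. Its log2 fold change was 0.10 ± 0.11 (SE; 95% interval -0.13 to 0.32; edgeR adjusted p = 0.647). Nptx2 ranged from 21.7 to 35.6 CPM in CSS with a median of 25.3, against 18.1 to 35.3 CPM in CSS_control with a median of 24.6. Its log2 fold change was 0.11 ± 0.14 (SE; 95% interval -0.19 to 0.40; edgeR adjusted p = 0.700). CSS 2 was among the highest CSS libraries for both genes, and without it the estimates were 0.014 for Nptx1 and 0.043 for Nptx2.

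The titles of this cohort carry a code whose number after the letter C runs from 1 to 4, with no meaning given. CSS mice stood mostly in codes 3 and 4 and controls mostly in codes 1 and 2. Within code 1 (1 CSS library and 4 controls) the log2 ratio of mean CPM of CSS to control was 1.13 for Nr4a3, 0.62 for Homer1, 1.30 for Arc and 0.61 for Nr4a1. Within code 2 (1 CSS library and 3 controls) it was 0.94 for Nr4a3, 0.69 for Homer1, 1.32 for Arc and 0.63 for Nr4a1. Within code 3 (3 CSS libraries and 1 control) it was 0.75 for Nr4a3, -0.01 for Homer1, 0.07 for Arc and -0.26 for Nr4a1. For Nr4a2 the ratios were -0.30, 0.48 and 1.57 within codes 1, 2 and 3, and the only control of code 3 was CSS_control 8, its lowest library. Code 4 held 3 CSS libraries and no control. With the code as a factor in the edgeR fit, the log2 fold change of Nr4a3 was 0.95 (adjusted p = 0.125) and that of Homer1 0.43 (adjusted p = 0.129). In the same fit Nr4a2 had 0.50, against 0.09 without the code, Nr4a1 0.33 and Arc 0.90 (edgeR adjusted p = 0.354, 0.699 and 0.389). The part of the code in these differences was not tested further.

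In T2D, the estimates of 6 of the 7 genes were below those of controls and that of Nr4a2 was above. By edgeR 0 of the 7 passed, as did 0% of all genes. At an unadjusted p under 0.05 there were 3 of the 7, beside 5.84% of all genes: Nr4a2 was higher, as were 2.97% of all genes, and Homer1 and Nptx1 were lower, as were 2.87%. DESeq2 called 4 genes in all (0.0266%), and none of the 7 was among them. The groups of every one of the 7 overlapped, while 0.146% of all genes had groups without overlap.

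Nr4a2 ranged from 18.9 to 45.6 CPM in T2D with a median of 26.0, against 13.1 to 25.6 CPM in T2D_control with a median of 19.7. The T2D_control libraries fell into separate sets, 3 of them up to 15.9 CPM and 3 from 23.5 CPM, so that median lies in the gap. T2D 4 was far above the other diabetic mice, and 3 T2D libraries were above the highest control. The log2 fold change was 0.51 ± 0.21 (SE; 95% interval 0.06 to 0.97; edgeR adjusted p = 0.825). Without T2D 4 it was 0.32. With RIN as a covariate it was 0.78. In T2D 4 the summed striatal markers were 333 CPM, the lowest of the 6 diabetic mice. Markers of thalamus and hypothalamus summed to 233 CPM there, beside 113 to 133.01 CPM in the other diabetic mice, those of meningeal fibroblasts to 83.0 CPM beside 21.4 to 35.5 CPM, and those of red blood cells to 561 CPM beside 126 to 322 CPM. The part of these cells in this value was not tested.

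Nr4a1 ranged from 28.2 to 68.3 CPM in T2D with a median of 48.5, against 25.5 to 107 CPM in T2D_control with a median of 58.4. Every T2D library lay within the range of controls, and the log2 fold change was -0.26 ± 0.32 (SE; edgeR adjusted p = 0.915). Nr4a3 ranged from 12.01 to 38.7 CPM in T2D with a median of 23.6, against 13.6 to 48.0 CPM in T2D_control with a median of 24.1. The groups overlapped, with 1 T2D library below the lowest control, and its log2 fold change was -0.20 ± 0.33 (SE; edgeR adjusted p = 0.943). The direction of both turned with the RNA integrity number (RIN) as a covariate, at 0.065 for Nr4a1 and 0.077 for Nr4a3. RIN was 8.7 to 9.4 in T2D and 8.5 to 9.8 in T2D_control.

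Arc ranged from 74.6 to 166 CPM in T2D with a median of 99.4, against 78.1 to 459 CPM in T2D_control with a median of 178. All 6 T2D libraries were below the mean of controls, which T2D_control 6 raised with 459 CPM, and 2 T2D libraries were below the lowest control. edgeR gave a log2 fold change of -0.87 ± 0.43 (SE; 95% interval -1.81 to 0.07; edgeR adjusted p = 0.825). It was -0.47 without T2D_control 6 and -0.23 with RIN as a covariate. In T2D_control 6 the summed striatal markers were 428 CPM, the lowest of its group. Its sum of excitatory neuron markers was 1221 CPM, the highest of its group. The part of these cells in its Arc level was not tested.

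Homer1 ranged from 260 to 582 CPM in T2D with a median of 368, against 358 to 699 CPM in T2D_control with a median of 517. T2D 6 stood apart at 582 CPM, and the other 5 diabetic mice were all below the mean of controls. The log2 fold change was -0.48 ± 0.20 (SE; 95% interval -0.92 to -0.05; edgeR adjusted p = 0.825). With RIN as a covariate it was -0.24.

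Nptx1 ranged from 128 to 290 CPM in T2D with a median of 210, against 237 to 317 CPM in T2D_control with a median of 275. There were 4 T2D libraries below the lowest control, while T2D 1 and T2D 6, at 290 and 252 CPM, lay within the range of controls. edgeR gave a log2 fold change of -0.38 ± 0.16 (SE; 95% interval -0.72 to -0.05; edgeR adjusted p = 0.825). T2D 3, the lowest library for Nptx1, also had the lowest sum of excitatory neuron markers, 547 CPM. Its sum of 3 olfactory bulb markers was 105 CPM, beside 6.11 to 15.7 CPM in the other diabetic mice and 5.80 to 11.4 CPM in T2D_control. Without T2D 3 the log2 fold change was -0.27, and the part of these cells in it was not tested.

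Nptx2 ranged from 20.2 to 47.9 CPM in T2D with a median of 33.3, against 29.0 to 54.6 CPM in T2D_control with a median of 39.3. The groups overlapped over most of their range, with 2 T2D libraries below the lowest control. The log2 fold change was -0.25 ± 0.20 (SE; 95% interval -0.69 to 0.19; edgeR adjusted p = 0.862). With RIN as a covariate it was -0.029, and it was -0.14 without T2D 5 and -0.15 without T2D_control 6.

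**Figure D3:**
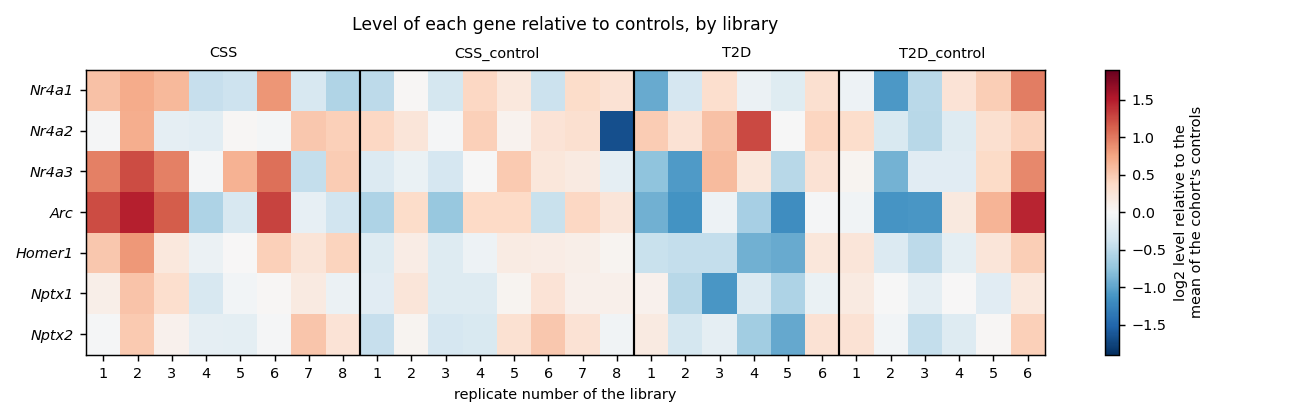
Level of each gene (rows) in each library (columns, by replicate number within CSS, CSS_control, T2D and T2D_control) as a log2 value relative to the mean of the controls of its cohort. Arc, Nr4a1 and Nr4a3 are all high in CSS 1, 2, 3 and 6 and in T2D_control 6, while Nr4a2 in CSS_control 8 is the lowest value shown.

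The change in CSS was set against the change in T2D in 1 fit over the 28 libraries and 14888 shared genes, in which a constant difference between the cohorts cancels. For 6 of the 7 genes the CSS change was the higher, and Nr4a2 had the opposite sign. None of the 7 passed in edgeR, beside 0.0806% of all genes. At an unadjusted p under 0.05 there were 4 of the 7, all with the higher change in CSS, beside 12.4% of all genes in either direction and 6% with the higher change in CSS. Homer1 had a difference of log2 fold changes of 0.81 ± 0.23 (SE; 95% interval 0.34 to 1.29; edgeR adjusted p = 0.149). It passed without T2D 6 (edgeR adjusted p = 0.0425) and in DESeq2 (adjusted p = 0.0395), where 0.783% of all genes passed, 0.503% with the higher change in CSS. Over all the alternatives run its adjusted p lay between 0.0395 and 0.331.

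Arc had the largest difference of the 7, 1.50 ± 0.56 (SE; 95% interval 0.35 to 2.64; edgeR adjusted p = 0.275). It was 0.93 with RIN as a covariate. Nr4a3 differed by 0.87 ± 0.39 (SE; edgeR adjusted p = 0.364) and Nptx1 by 0.47 ± 0.19 (SE; edgeR adjusted p = 0.319). The intervals of the other 3 genes held 0, with estimates of 0.44 for Nr4a1, -0.43 for Nr4a2 and 0.35 for Nptx2. The cohorts also differed in age.

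**Figure D4:**
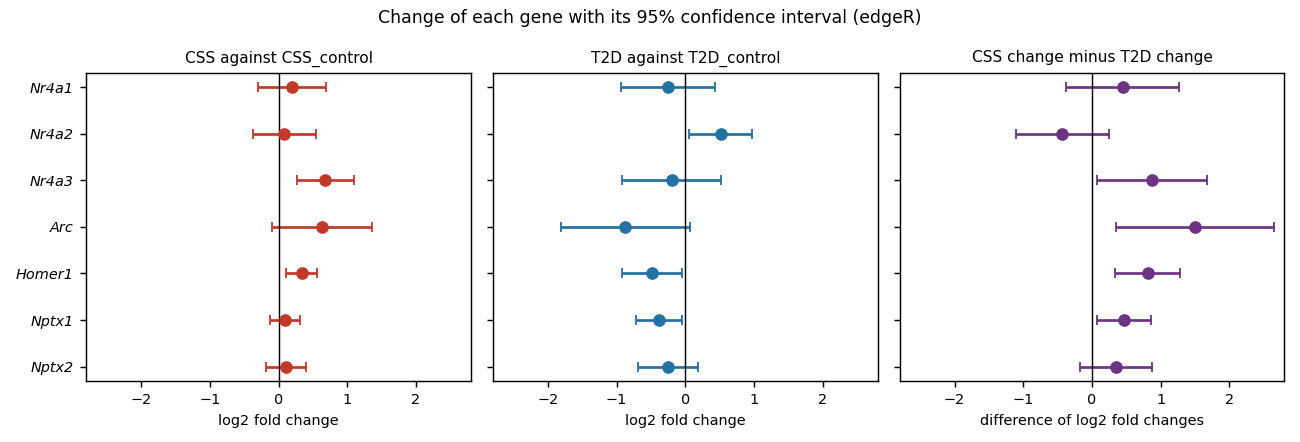
Log2 fold change of each gene in CSS against CSS_control and in T2D against T2D_control, and the difference between these changes (x axes), with 95% confidence intervals from edgeR. The intervals of Nr4a3 and Homer1 lie above 0 in CSS, those of Homer1 and Nptx1 lie below 0 and that of Nr4a2 above 0 in T2D, and none of the 7 genes passed after adjustment over all genes.

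Arc, Nr4a1, Nr4a3 and Nr4a2 varied more between mice of a group than most genes did. The biological coefficient of variation, which is the spread left after counting error, was 46.2% for Arc in the CSS cohort and 50.1% in the T2D cohort, at percentiles 98.6 and 98.0 of all genes. It was 31.7% and 37.6% for Nr4a1, 27.2% and 39.4% for Nr4a3 and 30.2% and 25.7% for Nr4a2. The 30.2% of Nr4a2 takes in CSS_control 8, at 5.75 CPM with the next control at 18.3 CPM. The median gene had 12.2% in the CSS cohort and 15.1% in the T2D cohort. In the CSS cohort Homer1 (15.3%) and Nptx1 (15.0%) were closest to the median gene, and Nptx2 had 19.4%. In the T2D cohort Nptx1 (19.2%) was closest, and Homer1 (24.5%) and Nptx2 (24.8%) lay near Nr4a2 (25.7%). The percentiles in the CSS and T2D cohorts were 64.6 and 66.4 for Nptx1, 65.7 and 80.7 for Homer1 and 79.1 and 81.3 for Nptx2. They were 94.4 and 83.0 for Nr4a2, 95.3 and 95.1 for Nr4a1 and 92.1 and 95.9 for Nr4a3.

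The genes were compared across libraries on log2 CPM centred on the group means, with two-sided permutation tests adjusted over the 21 pairs of a cohort. In the CSS cohort Arc fell into separate sets of libraries in both groups, Nr4a1 in CSS and Nptx1 in CSS_control. No pooled correlation is thus given for pairs with them, and the sets were too small for a correlation within them. Of the 6 pairs left, 2 passed. Nr4a3 and Homer1 had Pearson's r = 0.63 and Spearman's rho = 0.66 (permutation p = 0.00924 and 0.00653, adjusted p = 0.0243 and 0.0205), and r was 0.65 without the 2 libraries farthest from the median of Nr4a3. Homer1 and Nptx2 had r = 0.68 and rho = 0.67 (permutation p = 0.00415 and 0.00543, adjusted p = 0.0124 and 0.0205), and r was 0.60 without the 2 libraries farthest from the median of Homer1. Within CSS alone, with 8 libraries, 0 of 10 pairs passed on Pearson's r, and within CSS_control alone, with 8 libraries, 0 of 10.

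In the T2D cohort Nr4a2 fell into separate sets, and 5 of the 15 pairs left passed on Pearson's r over 12 libraries. Nr4a1 and Arc had r = 0.91 and rho = 0.90 (permutation p = 6.0e-05 and 0.00015, adjusted p = 0.00115 and 0.00105), with r = 0.82 without the 2 farthest libraries. Nr4a1 and Nr4a3 had r = 0.84 and rho = 0.91 (permutation p = 0.00047 and 0.00014, adjusted p = 0.00329 and 0.00105), with r = 0.72 without 2. Nr4a3 and Arc had r = 0.84 and rho = 0.86 (permutation p = 0.00086 and 0.00055, adjusted p = 0.00451 and 0.00289), with r = 0.75 without 2.

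The other 2 pairs that passed held Homer1. Homer1 and Nptx2 had r = 0.90 and rho = 0.94 (permutation p = 0.00011 and 7.0e-05, adjusted p = 0.00115 and 0.00105), with r = 0.87 without 2. Arc and Homer1 had r = 0.72 and rho = 0.69 (permutation p = 0.00841 and 0.0160, adjusted p = 0.0353 and 0.0591), with r = 0.66 without 2, so this pair passed on r and missed the threshold on rho. Nptx1 passed with none of the genes it was paired with. Its r was -0.19 with Nr4a1, -0.16 with Nr4a3 and 0.06 with Arc (permutation adjusted p = 0.620, 0.664 and 0.852). With Homer1 it was 0.32 and with Nptx2 0.44 (permutation adjusted p = 0.421 and 0.258). The r of Nptx1 and Nptx2 was 0.68 without the 2 libraries farthest from the median of Nptx1. Within T2D alone, with 6 libraries, 0 of 21 pairs passed. Within T2D_control alone, with 6 libraries, 2 of 15 passed, Nr4a1 with Arc and Homer1 with Nptx2.

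**Figure D5:**
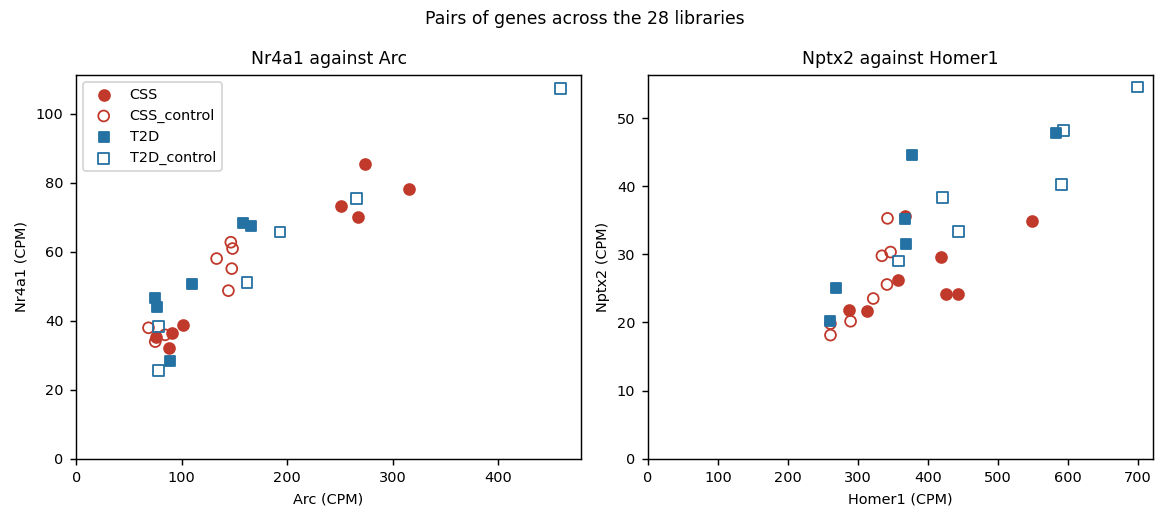
CPM of Nr4a1 against Arc and of Nptx2 against Homer1 in the 28 libraries (axes from 0), with filled symbols for CSS and T2D and open symbols for their controls. The CSS libraries form a low and a high set along Arc and Nr4a1, and the CSS_control libraries also form separate sets along Arc. T2D_control 6 is highest in all 4 genes, at 459, 107, 699 and 54.6 CPM for Arc, Nr4a1, Homer1 and Nptx2.

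The protein-coding genes with the most similar pattern were sought among 13517 genes by Pearson's r over the 28 libraries, each centred on its group mean. For Arc, Nr4a1 and Nptx1 in the CSS cohort and Nr4a2 in the T2D cohort, whose libraries fell into separate sets, r also takes in the gap between the sets. As a description with no test, those closest to Arc were Trib1 at 0.92, Dusp1 at 0.92 and Sertad1 at 0.90. Dusp1 encodes a phosphatase that switches off MAP kinases. The genes closest to Nr4a1 were Arl5b at 0.87, Fos at 0.86 and Dusp1 at 0.86, and those closest to Nr4a3 were Per2, Dusp4 and Fos, each at 0.88. Per2 is a repressor of the circadian clock. Those closest to Homer1 were Pdp1 at 0.90, P4ha1 at 0.89 and Spred1 at 0.88, and to Nptx2 Cx3cl1 at 0.88, Stt3b at 0.86 and Josd1 at 0.84.

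Nptx1 had the closest partners of all 7, Tmem178 and Mical2 at 0.96 each and Lingo1 at 0.94, and Nr4a2 the least close, Cpne4 at 0.73, Mas1 at 0.64 and Ei24 at 0.62. Spearman's rho with Nr4a2 was 0.50 for Cpne4, 0.50 for Mas1 and 0.62 for Ei24. CSS_control 8, the lowest control for Nr4a2, was also the lowest control for Cpne4 (29.9 CPM), Mas1 (6.90 CPM) and Ei24 (61.8 CPM). The part of that library in these values of r was not tested. To the mean of the 7 standardised genes the closest were Gfod1 at 0.89 and Pcsk1, Gpr3, Spry2 and Dusp6 at 0.87 each. Of these partners, Per2, Dusp4, P4ha1 and Spred1 rose in CSS by edgeR, and none of the others passed. Of all 15097 genes, 318 rose. Per2 had 51.0 ± 16.1 CPM in CSS and 29.0 ± 2.51 CPM in CSS_control (SD, n = 8 each; log2 fold change 0.82 ± 0.15 SE, edgeR adjusted p = 0.0106). Dusp4 rose by 0.75 ± 0.20 (SE; edgeR adjusted p = 0.0370), P4ha1 by 0.41 ± 0.10 (SE; edgeR adjusted p = 0.0279) and Spred1 by 0.36 ± 0.06 (SE; edgeR adjusted p = 0.00660). Spred1 also passed in the difference between the CSS and T2D changes, at 0.60 ± 0.12 (SE; edgeR adjusted p = 0.0485). Spred1 passed in CSS under each of 25 alternatives, P4ha1 under 18 and Dusp4 under 11, with edgeR or DESeq2 adjusted p up to 0.0263, 0.118 and 0.135. Per2 passed under 24, the exception being the title code as a factor (edgeR adjusted p = 0.0672). In the difference between the changes Spred1 passed under 13 of 35 alternatives, with adjusted p up to 0.133 with RIN as a covariate.

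Other genes of the pathway were read from lists of activity-regulated effectors, immediate early transcription factors, upstream regulators and protein partners. In CSS, 0 of 20 other effectors passed in edgeR, with a median log2 fold change of 0.10 beside 0.01 over all genes. Pcsk1, a protease that matures neuropeptides, had 63.0 ± 9.33 CPM in CSS and 55.1 ± 5.82 CPM in CSS_control (SD; edgeR adjusted p = 0.183). None of 16 immediate early factors passed, with a median of 0.23. Egr1, a zinc finger factor of this class, had 98.1 ± 41.8 CPM in CSS and 70.0 ± 14.8 CPM in CSS_control (SD; edgeR adjusted p = 0.244), and Per1, a clock repressor, had 61.0 ± 20.0 CPM in CSS and 45.9 ± 5.26 CPM in CSS_control (SD; edgeR adjusted p = 0.167).

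Of 19 genes upstream of activity genes, 2 rose and 1 fell in CSS by edgeR, with a median of 0.01. Over all 15097 genes, 318 rose and 365 fell, 4.52% together. Hdac4, a deacetylase that represses MEF2 targets, rose to 93.7 ± 9.77 CPM in CSS, against 74.2 ± 6.26 CPM in CSS_control (SD; edgeR adjusted p = 0.0123). Ep300, an acetyltransferase and coactivator of CREB, rose to 89.4 ± 14.8 CPM in CSS, against 67.3 ± 8.94 CPM in CSS_control (SD; edgeR adjusted p = 0.0252). Mef2c, which encodes a MEF2 factor, fell to 595 ± 80.4 CPM in CSS, against 738 ± 96.2 CPM in CSS_control (SD; edgeR adjusted p = 0.0477). Under 25 alternatives Hdac4 passed in 24, Ep300 in 20 and Mef2c in 11. With the title code as a factor none of the 3 passed (edgeR adjusted p = 0.129, 0.212 and 0.409).

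In CSS, none of 9 partners of Homer proteins, 8 of the pentraxins or 8 of ARC passed in edgeR, with medians of 0.06, -0.01 and 0.01. The Homer-binding scaffold gene Shank2 was nearest, just outside the threshold, with 158 ± 16.4 CPM in CSS and 137 ± 8.67 CPM in CSS_control (SD; edgeR adjusted p = 0.0509), and it passed under 6 of 25 alternatives.

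In T2D no gene of these lists passed in edgeR. The median log2 fold change was -0.15 over the 20 effectors and -0.31 over the 16 immediate early factors, beside 0.00 over all genes, and 17 effectors and 13 factors had estimates below 0. The growth factor gene Bdnf had a log2 fold change of -0.57 ± 0.23 and the kinase gene Plk3 one of -0.44 ± 0.18 (SE; edgeR adjusted p = 0.825 for both). Jun, a subunit of AP-1, went the other way with 0.36 ± 0.13 (SE; edgeR adjusted p = 0.825). In the difference between the CSS and T2D changes no gene of the lists passed either, and the medians were 0.21 over the effectors and 0.46 over the immediate early factors, beside -0.01 over all genes.

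Markers of other cell types also differed between CSS and CSS_control. Microglial markers summed to 162 to 276 CPM in CSS and 275 to 318 CPM in CSS_control, and 5 of 8 were lower by edgeR, as were 365 of all 15097 genes. Other lists had estimates above 0, with 318 of all genes higher by edgeR. Astrocyte markers summed to 3550 to 4435 CPM in CSS and 3145 to 3677 CPM in CSS_control, with 6 of 6 estimates above 0 and 1 called. Endothelial markers summed to 126 to 184.03 CPM in CSS and 127 to 155 CPM in CSS_control, with 5 of 5 above 0 and 2 called. Markers of meningeal fibroblasts summed to 24.98 to 76.2 CPM in CSS and 20.6 to 47.6 CPM in CSS_control, with 5 of 5 above 0 and 1 called. Those of red blood cells summed to 133.2 to 575 CPM in CSS and 101.9 to 231 CPM in CSS_control, with 5 of 5 above 0 and 0 called after adjustment. Markers of oligodendrocyte precursors had 3 of 4 estimates above 0 in CSS, and Gpr17 was called higher (log2 fold change 0.40, edgeR adjusted p = 0.00903). Of 6 inhibitory neuron markers, 2 had estimates above 0 in CSS, and Sst was called lower (log2 fold change -0.30, edgeR adjusted p = 0.0279). Striatal markers had estimates below 0 for 9 of 9 in CSS and above 0 for 9 of 9 in T2D, and none passed in edgeR. The part of these cells in the levels of the 7 genes was not tested.

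The 7 genes lie apart in the genome. In GRCm38, Nr4a1 (ENSMUSG00000023034) spans 101254269 to 101274795 on chromosome 15 and Arc (ENSMUSG00000022602) spans 74669083 to 74672570 on the same chromosome. Nr4a2 (ENSMUSG00000026826) spans 57106830 to 57124003 on chromosome 2, Nr4a3 (ENSMUSG00000028341) spans 48045153 to 48086447 on chromosome 4, and Homer1 (ENSMUSG00000007617) spans 93299635 to 93405129 on chromosome 13. Nptx1 (ENSMUSG00000025582) spans 119538719 to 119547753 on chromosome 11 and Nptx2 (ENSMUSG00000059991) spans 144545902 to 144557478 on chromosome 5. Their exons shared 0 bases with the exons of other annotated genes. The genes Gm47075 and Gm47088 overlap the span of Homer1 on the same strand. Of the 31-base words in the transcripts of the 7 genes, 0% to 0.4% occurred in another gene. The receptors shared 0 such words with each other, and so did the pentraxins.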

How the data were processed

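RNA of the frontal cortex of 28 mice was sequenced. Libraries were made with a stranded total RNA kit after depletion of ribosomal RNA, per the labels' protocols. The authors deposited estimated counts per gene in 1 table for each cohort; Salmon 1.1.0 and the build mm10 are named per the submitters' processing notes. No source used here states any scaling for transcript length or any use of strand. Genes below about 1 CPM were not in the tables, which held 15097 (CSS) and 15054 (T2D) genes.

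Groups came from titles and treatment labels. Values were rounded to whole numbers, scaled by TMM and tested by edgeR 4.0.16 (robust quasi-likelihood, Benjamini-Hochberg over all genes, threshold 0.05) in R 4.3.3, each cohort by itself, with the difference of changes over all 28 libraries. CPM are TMM-scaled, and log2 CPM used a prior count of 2. Intervals are 95% and use the degrees of freedom of the test. Alternatives were DESeq2 1.42.0, limma 3.58.1 (voom), other scaling, filters, covariates, the replicate block and leaving out each library. Correlations used 100000 permutations. Libraries of a group were called separate sets where the largest gap exceeded 0.5 of the log2 range with at least 3 libraries on each side, a rule chosen after seeing the data.

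Transcripts and coordinates came from GENCODE M21, promoter sequences from RefSeq on GRCm38.p6, which matched 4 of 7 genes (Arc, Nptx1 and Nptx2 were not matched). The named genes were the 7, the 3 genes of smallest p in each list, of which some are given, and the most similar genes. The 7 genes and the lists were chosen with earlier results of these data known. The list of receptor partners in CSS is not reported here.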

Additional observations from a re-analysis of the deposited data

Results flagged for a closer look

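Among 28 sets of libraries (7 genes in 4 groups), 3 held a library far from the others by Dixon's criterion, which chance meets in about 1 of 20 such sets. Nr4a2 was 45.6 CPM in T2D 4, with the next library at 28.04 CPM (gap over range 0.658, critical value 0.625). Homer1 was 582 CPM in T2D 6, with the next library at 377 CPM (gap over range 0.636, critical value 0.625). Nr4a2 was 5.75 CPM in CSS_control 8, with the next library at 18.3 CPM (gap over range 0.639, critical value 0.526). In CSS_control 8 the other 6 genes lay within the range of the other controls.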

How the results depend on the processing

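The comparison of CSS with CSS_control called 683 genes by edgeR, 1280 by DESeq2 and 2 with the title code as a factor, and 222 to 794 when 1 library was left out. That of T2D with T2D_control called 0 genes (879 at an unadjusted p under 0.05), 4 by DESeq2 and 0 when any 1 library was left out. The difference of changes called 12 genes, 112 by DESeq2, 0 by limma-voom, 0 with RIN as a covariate and 0 to 32 when 1 library was left out. The replicate numbers were not used as pairs in the main fits. Same-numbered libraries of the CSS cohort correlated at -0.16 to 0.33 and those of the T2D cohort at -0.01 to 0.13. In the CSS cohort only replicates 1 and 2 were best matched by their own number, and in the T2D cohort none was. These values cannot exclude a pairing. With the replicate block edgeR called 478 genes in CSS, 0 in T2D and 32 in the difference, the last fit being added after seeing the data. Of 560 alternative values of the 7 genes, 548 kept direction and side of the threshold, 7 newly passed and 5 reversed. The reversed log2 fold changes were those of Nr4a2 in CSS (-0.0087 without CSS 2 and -0.052 without CSS_control 8) and, in T2D, those of Nr4a1 (0.065 with RIN) and Nr4a3 (0.077 with RIN; -0.39 to 0.039 when 1 library was left out, the highest without T2D_control 6); the cause was not tested. Without the 2 farthest libraries, 1 pair passed in the CSS cohort and 2 in the T2D cohort, beside 2 and 5.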
